A study of Mesocricetus auratus with 14 samples.

Results

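Sgk1, the GADD45 genes and a set of genes tied to glucocorticoid hormones were followed in hamster liver by RNA sequencing. Genes were taken by symbol, case ignored, from a list of 10 names: Sgk1, Gadd45a, Gadd45b, Gadd45g, Fkbp5, Tsc22d3, Nr3c1, Zbtb16, Hsd11b1 and Cdkn1a. The authors' table of 10023 genes with a symbol held 8 of the 10; Tsc22d3 and Nr3c1 were not matched there and were not analysed here. All 8 passed the filter on low counts, which left 12166 of 22283 genes. The list was chosen by the fold changes and calls of DC371739 against control: Sgk1 and Gadd45g stood among the larger falls there, and the others were added by name. The values of that comparison are therefore given for all 8 genes as a description, with their errors and without a p-value.

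The tested animals were Syrian golden hamsters (Mesocricetus auratus) given DC371739, a compound known by its code name, and were set against controls. There were 7 liver samples per group, and both groups carry the label of a high-fat diet, so that the diet was shared and no lean group was analysed here. The sources used here give no strain, sex, age, dose, duration or hour of tissue collection, and do not say whether each sample was a separate animal. The p-values therefore measure the spread between these samples, part of which may be technical.

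Glucocorticoids act through a receptor that is held in the cytoplasm by HSP90 chaperones and moves to the nucleus when it binds hormone, where it switches target genes on or off. In liver the hormone drives glucose production and amino acid breakdown, and its level inside the hepatocyte depends on the enzyme encoded by Hsd11b1, which regenerates active hormone from its inert form. SGK1 is a kinase of the AGC family whose gene is quickly induced by glucocorticoids, mineralocorticoids, serum and cell shrinkage. The GADD45 proteins are small acidic stress sensors without enzyme activity of their own, which bind PCNA, the p21 protein and the kinase MTK1 (MAP3K4).

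Libraries held 13672589 to 23948628 counts in genes. The 3 deepest, DC371739 replicate 7 and control replicates 6 and 7, held 22152239 to 23948628, against 13672589 to 16710097 in the other 11. On the first principal component (33.3% of the variance) these 3 scored 41.6 to 46.8 and the other 11 scored -30.6 to -0.97. Each result is therefore given over all 14 libraries and again over the 11 shallower ones (6 DC371739 and 5 control). Hepatocyte markers were looked at beside the liver label. All 11 that had a symbol in the table were detected in each library, at a summed 117182 to 139584 CPM in DC371739 and 118613 to 154526 CPM in control livers. The listed markers of other cell types with a symbol were also detected in each library, so detection alone does not check the label. CPM here is the count scaled to 1e+06 counts of the TMM-adjusted library total.

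Of the 8 genes, 2 lay lower with DC371739 at an adjusted p under 0.05 (edgeR's quasi-likelihood test over all 12166 genes), Sgk1 and Gadd45g, and none lay higher. Over all genes 0.608% passed in the lower and 1.24% in the higher direction; since the genes were chosen with this contrast known, nothing is read from the count. The median log2 fold change was -0.12 over the 8 genes and -0.02 over all genes. With a term for library class the same 2 genes passed, against 6.70% of all genes lower and 5.62% higher. Without the 3 deeper libraries they again were the 2 that passed, against 10.5% of 12249 genes lower (1282) and 1353 genes higher.

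**Figure D1:**
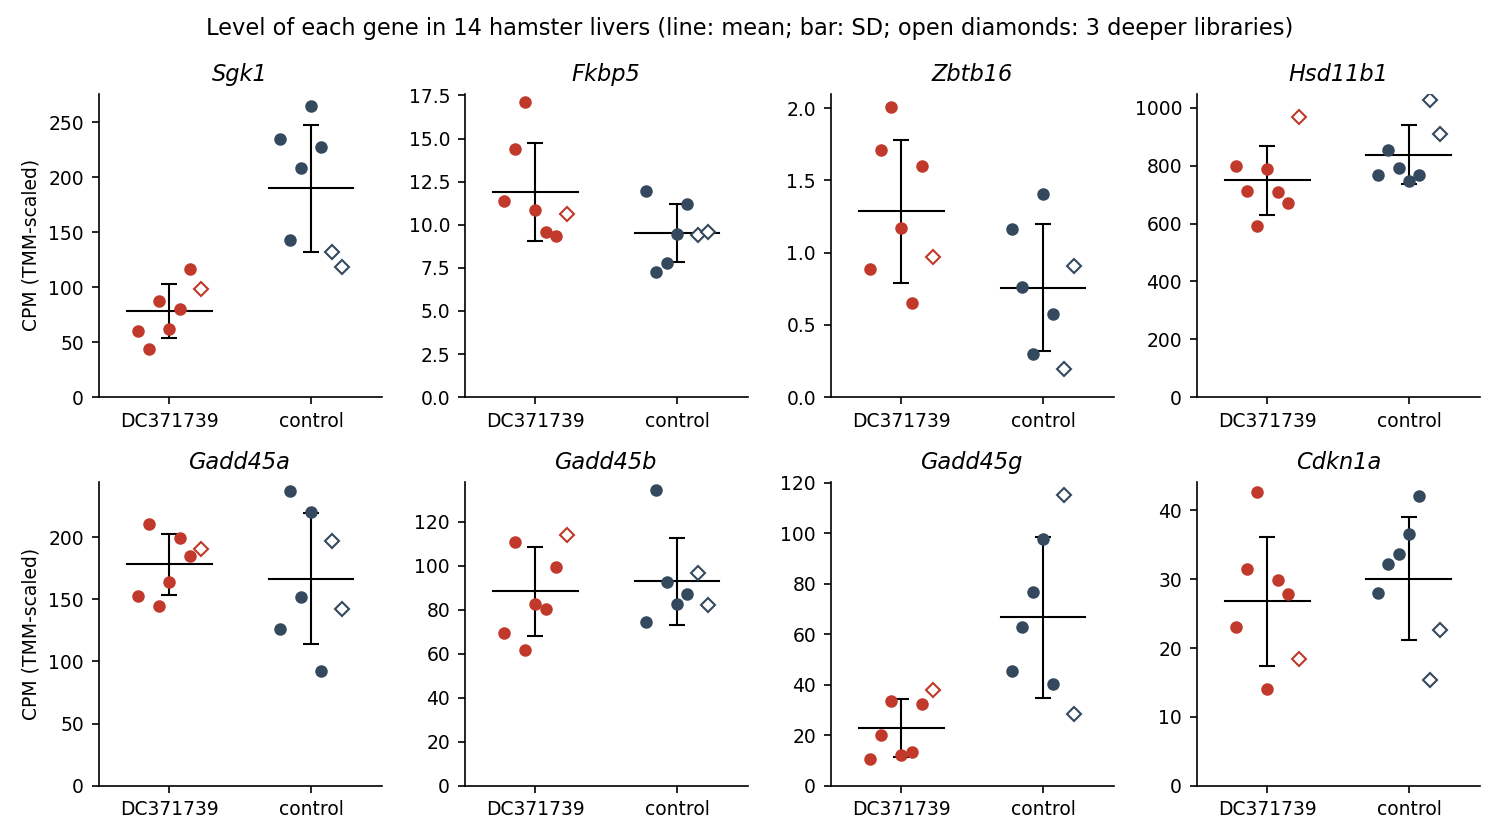
CPM of each of the 8 genes in the 7 DC371739 and 7 control livers, 1 symbol per library, with the group mean as a line and the SD as a bar; open diamonds mark the 3 deeper libraries. For Sgk1 the DC371739 livers (44.2 to 116 CPM) all lie below the controls (118 to 265 CPM), while for Gadd45a and Gadd45b the groups overlap along most of their range.

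Sgk1, the kinase, had 44.2 CPM in the lowest, 79.7 in the median and 116 in the highest DC371739 liver, against 118, 208 and 265 CPM in control livers. The groups did not overlap, but came within 2 CPM of each other: the highest DC371739 liver (replicate 6, 116 CPM) stood next to the lowest control (replicate 7, 118 CPM). Over all genes 0.403% had every DC371739 liver below every control. The 2 deeper controls were the 2 lowest of their group, at 132 and 118 CPM, and the deeper DC371739 replicate 7 was the second highest of its own, at 98.6 CPM. Means were 78.3 ± 24.9 CPM with DC371739 and 190 ± 57.9 CPM in controls (SD, n = 7 each). The log2 fold change was -1.28 (SE 0.22).

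In the 11 shallower libraries Sgk1 stood at 44.2 to 116 CPM in the 6 DC371739 livers and at 143 to 265 CPM in the 5 controls, which widened the gap between the groups. Its log2 fold change was then -1.52 (SE 0.23), and -1.28 (SE 0.23) with a term for library class. In the deeper class the 1 DC371739 liver had 98.6 CPM against 132 and 118 CPM in controls 6 and 7, and no test was made within that class. An interaction term for the DC371739 effect between the classes gave Sgk1 a difference of 1.18 on the log2 scale (SE 0.49). That term rests on the 1 deeper DC371739 liver, so it cannot decide whether the effect was alike or different in the classes. For the same reason nothing is read from the 2 of all genes that passed the interaction test (0.0164%). Leaving out each of the 14 libraries in turn gave log2 fold changes of -1.40 to -1.18, which describe the spread of a value that chose the gene and add no support to it. A block on the replicate number ended its call, as given with the other settings.

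Gadd45g, the GADD45 gene named for its gamma protein, had 10.7 CPM in the lowest, 19.9 in the median and 37.8 in the highest DC371739 liver, against 28.2, 62.9 and 115 CPM in control livers. All 7 DC371739 livers lay below the control median and 4 lay below the lowest control. The groups overlapped only through control replicate 7, a deeper library and the lowest of its group. DC371739 replicates 3, 6 and 7 (33.4, 32.5 and 37.8 CPM) stood above it, and all other controls stood at 40.2 CPM or more. The deeper DC371739 replicate 7 and control replicate 6 were each the highest of their group. Means were 22.8 ± 11.5 CPM with DC371739 and 66.6 ± 31.7 CPM in controls (SD, n = 7 each). That is -1.54 as a log2 fold change (SE 0.35). Without the 3 deeper libraries the groups stood apart, at 10.7 to 33.4 CPM in DC371739 and 40.2 to 97.7 CPM in control livers, and the log2 fold change was -1.65 (SE 0.37). Of all genes 4.89% had every DC371739 liver below every control in those 11 libraries.

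The call on Gadd45g held without DC371739 replicate 7, control replicate 1 or control replicate 7, and was lost when any other single library was left out of the 14. The log2 fold changes were then -1.71 to -1.35, which describe a value that chose the gene and add no support to it. Gadd45g was also among the most variable genes within a group. Its coefficient of variation was 50.2% among DC371739 livers and 47.6% among controls, higher than or equal to that of 96.1% and 92.4% of all genes.

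The other GADD45 genes did not follow Gadd45g. Gadd45a, the DNA damage-inducible gene that gave the family its name, had 145 CPM in the lowest, 185 in the median and 210 in the highest DC371739 liver, against 92.5, 152 and 237 CPM in control livers. The control range enclosed that of the DC371739 livers. The log2 fold change of Gadd45a was 0.10 (SE 0.18), and its sign turned without control replicate 5 (-0.0075). Gadd45b, which is induced by NF-kB and TGF-beta signalling, had 61.9, 82.5 and 114 CPM at the lowest, the median and the highest of the DC371739 livers, against 74.5, 87.3 and 134 CPM in controls, and again the groups overlapped. Gadd45b had a log2 fold change of -0.07 (SE 0.15), and its sign turned without control replicate 2 (0.037), the highest library of that gene. Neither sign changed under another scaling of the counts.

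Ratios within a library do not depend on how libraries are scaled to each other. The count of Gadd45g was 0.15 to 0.54 of that of Gadd45b in DC371739 livers (median 0.18), and 0.34 to 1.19 in controls (median 0.61). Against Gadd45a it was 0.07 to 0.23 (median 0.09) with DC371739 and 0.199 to 0.585 (median 0.435) in controls. Both ratios of Gadd45g overlapped between the groups at their ends. Over the 11 shallower libraries the ratio to Gadd45b still overlapped (0.148 to 0.539 with DC371739, 0.460 to 1.18 in controls). The ratio to Gadd45a did not there (0.067 to 0.230 and 0.265 to 0.506). Since Gadd45g was chosen with its fall known, these ratios restate that fall and add no support to it. The ratio of Gadd45a to Gadd45b was 1.67 to 2.48 in DC371739 livers and 1.06 to 2.66 in controls, so here the control range enclosed the other.

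**Figure D2:**
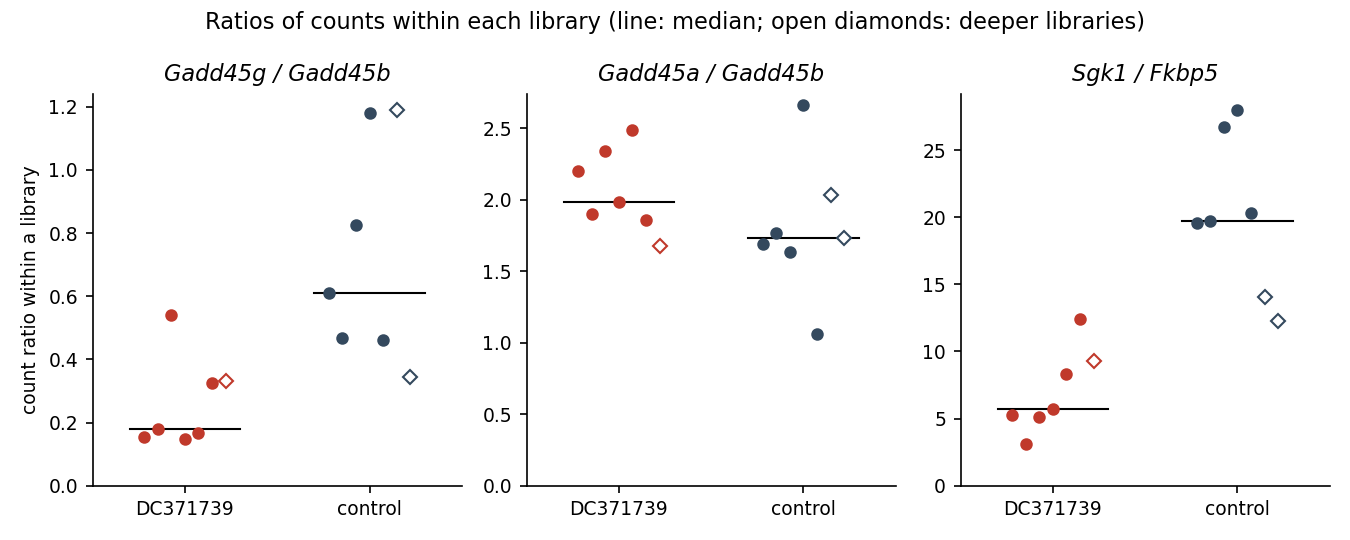
Ratio of the counts of 2 genes within each library, 1 symbol per library, for DC371739 and control livers, with the median as a line and open diamonds for the 3 deeper libraries. The median of Gadd45g over Gadd45b is 0.18 with DC371739 and 0.61 in controls, that of Gadd45a over Gadd45b is 1.98 with DC371739 and 1.73 in controls, and that of Sgk1 over Fkbp5 is 5.71 with DC371739 and 19.7 in controls.

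Fkbp5 and Zbtb16 are, like Sgk1, classic direct targets of the glucocorticoid receptor. Fkbp5 encodes a co-chaperone that lowers the receptor's affinity for hormone and is itself induced by it, a short negative feedback loop. Fkbp5 had 9.36, 10.8 and 17.1 CPM at the lowest, the median and the highest of the DC371739 livers, against 7.25, 9.47 and 12.0 CPM in controls. 6 of 7 DC371739 livers lay above the control median and 2 (replicates 2 and 3) above the highest control. Its log2 fold change was 0.32 (SE 0.15) and it did not pass.

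Zbtb16, the transcriptional repressor PLZF, had 0.65, 1.17 and 2.01 CPM at the lowest, the median and the highest of the DC371739 livers, against 0.20, 0.76 and 1.41 CPM in controls. The groups overlapped, with 3 DC371739 livers above the highest control. The gene rested on 11 to 35 counts per library with DC371739 and 4 to 23 in controls, so that counting error alone is large. With a log2 fold change of 0.76 (SE 0.37) it did not pass. The fold changes of Fkbp5 and Zbtb16 stayed positive in every setting tried in which the gene was tested. Within a library the count of Sgk1 was 3.08 to 12.4 times that of Fkbp5 with DC371739 and 12.3 to 27.98 times in controls, with an overlap of the highest DC371739 and the lowest control library. Over the 11 shallower libraries the ratios did not overlap (3.08 to 12.4 with DC371739, 19.6 to 27.98 in controls). Since Sgk1 was chosen with its fall known, these ratios restate that fall and add no support to it. Whether the DC371739 effect differed between Sgk1 and Fkbp5 was not tested, since both were chosen with the contrast known.

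Hsd11b1, the enzyme that regenerates active glucocorticoid, was by far the most abundant of the 8. It had 591, 714 and 970 CPM at the lowest, the median and the highest of the DC371739 livers, against 748, 792 and 1028 CPM in controls. In both groups the deeper libraries were the highest, and 4 DC371739 livers lay below the lowest control. Its log2 fold change was -0.16 (SE 0.11), and -0.13 (SE 0.08) over the 11 shallower libraries, and it passed in neither.

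Cdkn1a encodes p21, an inhibitor of cyclin-dependent kinases that is induced by p53 and binds GADD45 proteins. It had 14.1, 27.9 and 42.7 CPM at the lowest, the median and the highest of the DC371739 livers, against 15.4, 32.2 and 42.1 CPM in controls, nearly the same range. Between the groups Cdkn1a differed by a log2 fold change of -0.17 (SE 0.23), and -0.28 (SE 0.22) over the 11 shallower libraries.

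**Figure D3:**
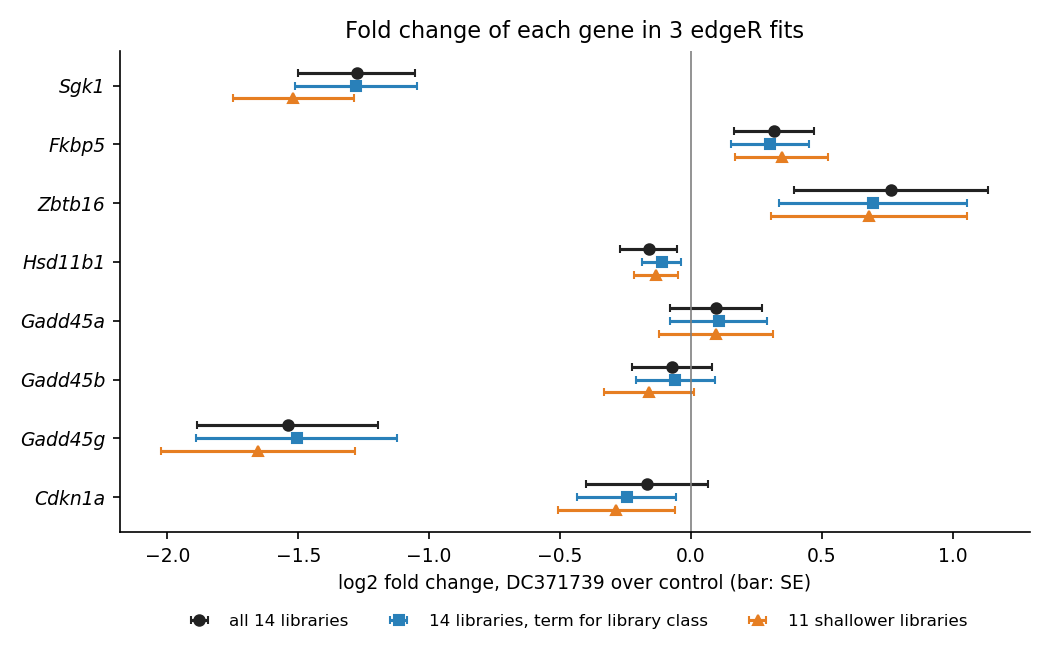
Log2 fold change of DC371739 over control for each of the 8 genes, with its SE as a bar, in the edgeR fit of all 14 libraries, in that with a term for library class and in that of the 11 shallower libraries. Sgk1 lies between -1.52 and -1.28 and Gadd45g between -1.65 and -1.51 in the 3 fits, and the other 6 genes lie between -0.28 and 0.76.

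In the authors' deposited table the log2 fold change was -1.27 for Sgk1 and -1.54 for Gadd45g, and for none of the 8 did it differ by more than 0.00555 from the fit given here. The direction of the authors' fold change is stated in its header as treated over control.

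Library class, set by total count, offered a comparison that the choice of genes had not used. With treatment in the model, 2 of the 8 genes differed between the 3 deeper and the 11 shallower libraries, against 46.4% of all genes (22.6% higher and 23.8% lower). Hsd11b1 was higher in the deeper libraries by 0.36 on the log2 scale (SE 0.09, adjusted p = 0.00347, edgeR's quasi-likelihood test) and Cdkn1a was lower by a log2 difference of -0.77 (SE 0.24, adjusted p = 0.0176). Sgk1 stood at -0.28 (SE 0.29, adjusted p = 0.449) and Gadd45g at 0.45 (SE 0.44, adjusted p = 0.439). Fkbp5, Zbtb16, Gadd45a and Gadd45b had adjusted p-values of 0.343 to 0.829. With 46.4% of all genes called, 2 of 8 does not single these genes out.

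Levels between genes were compared per length, as the authors' FPKM. In order, DC371739 livers averaged 964 ± 163 FPKM for Hsd11b1, 191 ± 27.1 for Gadd45a, 92.2 ± 21.7 for Gadd45b, 31.5 ± 10.1 for Sgk1, 28.2 ± 14.3 for Gadd45g, 19.1 ± 6.71 for Cdkn1a, 4.59 ± 1.09 for Fkbp5 and 0.91 ± 0.35 for Zbtb16 (SD, n = 7). Sgk1, Gadd45g and Cdkn1a followed each other within their spread in these livers. In control livers the means were 1076 ± 142 FPKM for Hsd11b1, 179 ± 56.8 for Gadd45a, 96.9 ± 20.6 for Gadd45b, 82.0 ± 39.5 for Gadd45g, 76.2 ± 22.8 for Sgk1, 21.4 ± 6.25 for Cdkn1a, 3.68 ± 0.64 for Fkbp5 and 0.54 ± 0.31 for Zbtb16 (SD, n = 7). Gadd45b, Gadd45g and Sgk1 were within their spread of each other there. By mean FPKM over all libraries Hsd11b1 stood at the 99.4th percentile of the 10023 genes with a symbol, Sgk1 at the 86.7th, Fkbp5 at the 32.0th and Zbtb16 at the 6.38th.

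Counts behind these levels were ample for most of the genes. Sgk1 had 751 to 2238 counts per library with DC371739 and 1873 to 4337 in controls, and Gadd45g had 156 to 859 with DC371739 and 592 to 2329 in controls. Fkbp5 had 158 to 298 with DC371739 and 95 to 206 in controls. Hsd11b1 had 10292 to 22020 with DC371739 and 11180 to 20808 in controls.

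In the coordinates of the count table, for which the sources used here name no build, Sgk1 (ENSMAUG00000009469) had 17 exon blocks between 10365041 and 10479773 on the minus strand of KB708131.1. Gadd45g (ENSMAUG00000020102) had 4 exon blocks between 2032269 and 2034001 on the minus strand of KB708133.1. Gadd45a lay on KB708185.1 and Gadd45b on KB708274.1, each also with 4 exon blocks, so that the 3 GADD45 genes were on separate scaffolds. Fkbp5 (1606408 to 1654239, minus strand) and Cdkn1a (2286177 to 2293513, plus strand) were on the same scaffold, KB708304.1. Counts cover the summed exons, and the span of none of the 8 genes was overlapped by another gene of the table, on either strand.

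Which genes resembled Sgk1 and Gadd45g was asked from variation within the groups, which the choice of genes had not used. Group means were removed from log2 CPM, and the Pearson correlation over the 11 shallower libraries was ranked over 8905 genes. The highest values are a description of these libraries with no p-value, because they were the top of that ranking, and the libraries share depth and scaling. The 5 genes closest to Gadd45g were Btg2 (r = 0.91, Spearman's rho 0.95), Egr1 (0.90, 0.88), Fos (0.90, 0.87), Ccn1 (0.88, 0.85) and Lfng (0.88, 0.88). Egr1 and Fos are immediate early transcription factors, Ccn1 is an immediate early matricellular protein gene and Btg2 an early antiproliferative gene. Lfng encodes a glycosyltransferase that modifies Notch receptors. Without the 2 libraries farthest from the median, r was 0.80 to 0.85 for these 5. The log2 fold changes with DC371739 over the 14 libraries were -0.73 for Btg2, -1.29 for Egr1, -1.81 for Fos and -1.36 for Ccn1, and 0.38 for Lfng.

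Fos had 2.05, 4.07 and 30.6 CPM at the lowest, the median and the highest of the DC371739 livers, against 8.30, 32.1 and 110 CPM in controls. The 3 DC371739 livers with the most Gadd45g, replicates 3, 6 and 7, were also the 3 with the most Fos. Control replicate 6 had the highest level of all 14 libraries for Fos, Btg2 and Gadd45g.

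**Figure D4:**
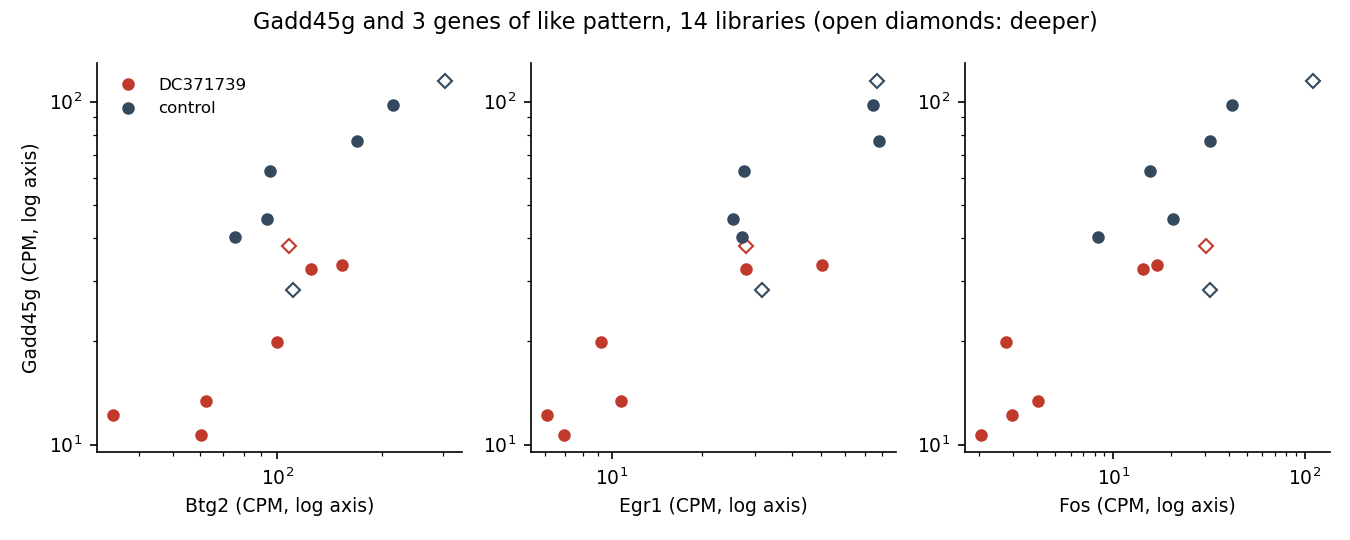
Gadd45g against Btg2, Egr1 and Fos in each library, in CPM on log axes, for DC371739 and control livers, with open diamonds for the 3 deeper libraries. Control replicate 6, at 115 CPM of Gadd45g and 110 CPM of Fos, is the highest point along the Gadd45g axis in each panel, and the lowest Gadd45g values (10.7 to 13.4 CPM) are those of 3 DC371739 livers.

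The 5 genes closest to Sgk1 in the same ranking were Gigyf2 (r = 0.92, rho 0.91), Ehmt1 (0.91, 0.91), Copa (0.90, 0.85), Ggcx (0.90, 0.82) and Atxn1l (0.90, 0.79). Gigyf2 encodes a repressor of translation, Ehmt1 a histone H3 lysine methyltransferase, Copa a coatomer subunit and Ggcx the vitamin K-dependent carboxylase. Their log2 fold changes with DC371739 over the 14 libraries were 0.03 to 0.17, against -1.28 for Sgk1, and over all 14 libraries r was 0.30 to 0.68. Sgk1 and Gadd45g themselves had r = 0.43 (rho 0.51) over the 11 libraries.

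Genes around the 8 were taken from 6 lists, of 109 genes in all, of which 87 had a symbol in the table and all 87 were tested. Of the 87, 1 rose and 1 fell over 14 libraries. The model with the class term called 9 higher and 7 lower, and the 11 shallower libraries gave 20 higher and 11 lower. Over all genes 1.85%, 12.3% and 21.5% were called in the same fits. The higher direction held 1.24%, 5.62% and 1353 of 12249 genes, and the lower 0.608%, 6.70% and 10.5%. Whether a list exceeds these shares was not tested. The lists were chosen with earlier results of these data known, so the p-values printed for their genes are a description.

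Other glucocorticoid targets numbered 27 tested genes, with a median log2 fold change of 0.03 against -0.02 over all genes; 1 rose, none fell and 26 did not pass. Mt2a, a metallothionein that binds zinc and copper and is induced by glucocorticoids and metals, was the 1 that rose. It had 245, 410 and 518 CPM at the lowest, the median and the highest of the DC371739 livers, against 137, 158 and 230 CPM in controls, and the groups did not overlap. Over all genes 0.296% had every DC371739 liver above every control. The log2 fold change of Mt2a was 1.11 (SE 0.17, adjusted p = 0.0101). In the 11 shallower libraries 8 of the 27 passed as higher and 2 as lower. There 1353 of all 12249 genes were called higher and 10.5% lower. The class term gave 4 and 2, against 5.62% and 6.70% of all genes.

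Of the 27 targets 16 had a positive and 11 a negative fold change over 14 libraries, and 14 and 13 over the 11 shallower ones. Those named next were chosen for mention after their values were seen and do not stand for the list. Dusp1, a phosphatase of MAP kinases that is both an immediate early gene and a glucocorticoid target, was at 92.2 ± 32.0 CPM with DC371739 and 164 ± 45.0 CPM in controls (SD, n = 7 each), a log2 change of -0.83 (SE 0.21, adjusted p = 0.0537). Klf9, a transcription factor and direct receptor target, was at 10.3 ± 2.69 CPM with DC371739 and 6.55 ± 2.47 CPM in controls, a log2 change of 0.65 (adjusted p = 0.117). Tat, the tyrosine aminotransferase long used as a marker of hormone action in liver, stood at 775 ± 120 and 570 ± 158 CPM in DC371739 and control livers (log2 change 0.44, adjusted p = 0.140). Pck1 and G6pc, which carry gluconeogenesis, had log2 changes of 1.22 (adjusted p = 0.0963) and 0.87 (0.115). Per1, a clock gene that the receptor induces, had a log2 change of 1.24 (0.169), with 5.91 CPM in the median and 34.6 in the highest DC371739 liver. Errfi1 had a log2 change of -0.37 (adjusted p = 0.196). Over the 11 shallower libraries the 2 that fell were Dusp1 (-0.96, adjusted p = 0.0136) and Errfi1 (-0.45, 0.00917). Klf9 rose there (0.94, 0.00852), as did Pck1 (1.63, 0.0499) and G6pc (1.20, 0.0471). Tat (0.55, 0.0526) and Per1 (1.24, 0.197) did not pass.

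**Figure D5:**
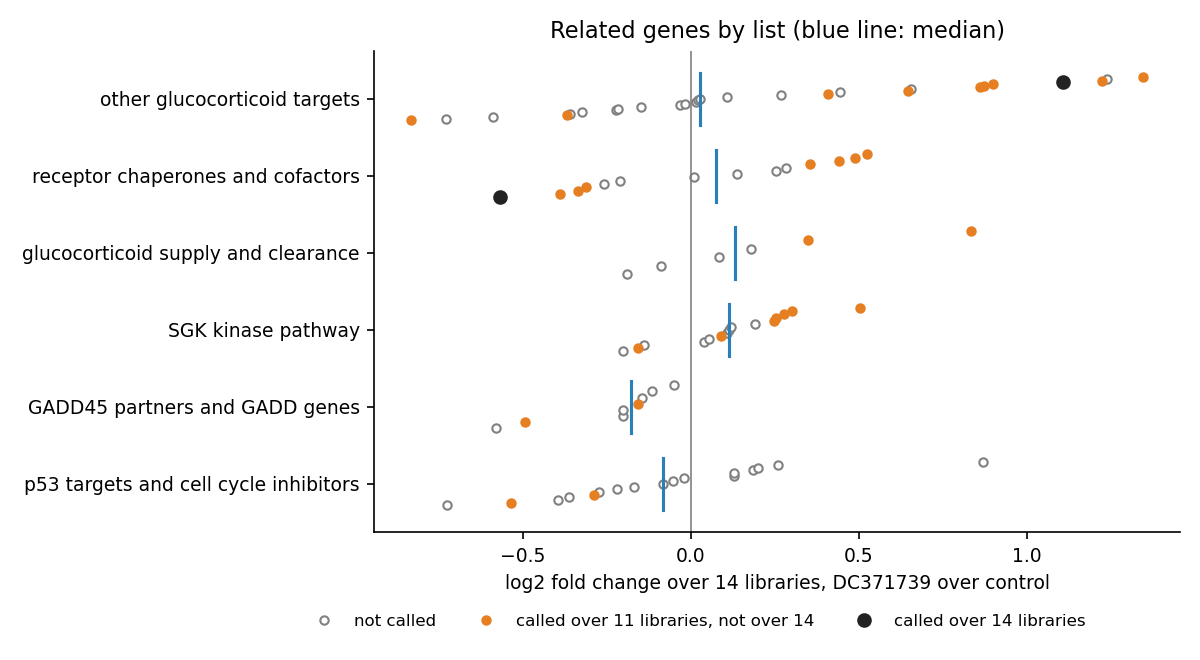
Log2 fold change of DC371739 over control in the fit of 14 libraries for each tested gene of 6 lists, 1 point per gene, with the list's median as a blue line. Filled black points passed an adjusted p of 0.05 over 14 libraries (Mt2a at 1.11 and Hspa8 at -0.57), and orange points passed over the 11 shallower libraries but not over 14.

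Chaperones and cofactors of the receptor numbered 14 tested genes, with a median of 0.07; 1 fell, none rose and 13 did not pass. Hspa8, the constitutive HSC70 chaperone that takes part in loading the receptor onto HSP90, had 538, 608 and 832 CPM at the lowest, the median and the highest of the DC371739 livers, against 656, 977 and 1064 CPM in controls. It fell by 0.57 on the log2 scale (SE 0.12, adjusted p = 0.0294), with overlapping groups. Its call was lost without any 1 of DC371739 replicates 1, 2, 3, 5 and 6 and control replicates 1, 3 and 5 (adjusted p up to 0.0768). Without the deeper libraries, where 10.5% of all genes fell and 1353 of 12249 rose, 4 of these 14 fell and 4 rose. Among the genes that fell there, named after their values were seen, were Fkbp4 (-0.38, adjusted p = 0.00173) and Stip1 (-0.38, 0.00908), co-chaperones of HSP90, and Ncoa1 (0.55, 0.00149) and Ncoa3 (0.60, 0.0125), coactivators, were among those that rose.

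Genes of glucocorticoid supply and clearance numbered 6, with a median of 0.13 and none called over 14 libraries. H6pd, which makes the cofactor that HSD11B1 uses, had 47.2, 108 and 179 CPM at the lowest, the median and the highest of the DC371739 livers, against 37.7, 65.3 and 80.2 CPM in controls (log2 change 0.83, SE 0.24, adjusted p = 0.0695). Abcb1a, an efflux pump of steroids, stood at 0.35 (0.419) and Serpina6, the corticosteroid-binding globulin of plasma, at -0.19 (0.499). H6pd passed with the class term (0.67, adjusted p = 0.0247) and over the 11 shallower libraries (0.81, 0.00903), with DESeq2 (0.83, 0.0163) and without DC371739 replicate 7 (0.97, 0.00935). Abcb1a rose over the 11 shallower libraries as well (0.71, 0.0235).

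The list around the SGK kinases held 15 tested genes, with a median of 0.11, 12 positive fold changes and none called over 14 libraries. Of all genes 46.6% had a positive fold change in that fit, and the signs were not tested. Mtor, the kinase of the complex that activates SGK1, was at 0.28 (SE 0.08, adjusted p = 0.0619). Akt1, a related AGC kinase, was at 0.25 (0.0876), and Pdpk1, the kinase that phosphorylates the activation loop of SGK1, at 0.50 (0.157). Mtor passed with upper-quartile scaling (0.30, adjusted p = 0.0468), with DESeq2 (0.28, 0.0111), with the class term (0.27, 0.0205), without DC371739 replicate 7 (0.31, 0.0180) and without control replicate 7 (0.30, 0.0420). In the 11 shallower libraries 6 of the 15 rose and 1 fell, with Mtor, Akt1 and Pdpk1 among the 6. Of all 12249 genes tested there 1353 rose and 10.5% fell. Sgk3, another kinase of the SGK family, was at 7.69 ± 1.61 CPM with DC371739 and 6.45 ± 2.03 CPM in controls (log2 change 0.25, adjusted p = 0.478; 0.45 and 0.0403 over the 11 shallower libraries), and was named after its values were seen.

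Partners of GADD45 proteins and other GADD genes numbered 8, with a median of -0.18, all 8 fold changes negative and none called over 14 libraries. With the class term, and again over the 11 shallower libraries, 7 were negative and 1 positive. Over all genes 46.6% were positive in the fit of 14 libraries, and the signs of this list were not tested. Gadd45gip1, a GADD45-binding protein that is also part of the mitochondrial ribosome, was at -0.49 (SE 0.18, adjusted p = 0.148). Mapk9, a JNK kinase, was at -0.20 (0.157) and Map2k6, an activator of p38, at -0.58 (0.203). Over the 11 shallower libraries, where 10.5% of all genes fell, 2 of the 8 did, Gadd45gip1 among them (-0.77, adjusted p = 0.00427). Targets of p53 and cell cycle inhibitors numbered 17, with a median of -0.08 and none called over 14 libraries. Plk2, a polo-like kinase, was at -0.53 (0.0866), Pmaip1, the proapoptotic NOXA, at 0.87 (0.127) and Btg2 at -0.73 (0.245). Without the deeper libraries 2 of the 17 fell, Plk2 among them (-0.54, 0.0314), and none rose, against 10.5% and 1353 of 12249 genes.

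Markers of other cell types moved with treatment in part. Of 13 macrophage markers with a symbol, 3 rose and none fell over 14 libraries, from Laptm5, Ctss and Mpeg1 (log2 fold change 0.80, the highest) to C1qa (-0.26, the lowest, not called). The share of all genes called higher there was 1.24%. A model with library class called 8 of these 13 higher, where 5.62% of all genes were. Their summed level was 932 to 1439 CPM in DC371739 and 815 to 1234 CPM in control livers. Of 11 hepatocyte markers none passed, Hnf4a being highest (0.48) and Apoa2 lowest (-0.38). Stellate and fibroblast markers summed to 292 to 486 CPM with DC371739 and 221 to 351 CPM in controls, with none of 10 called, from Col1a1 (0.75) to Lrat (-0.13). Endothelial markers summed to 251 to 341 and 199 to 309 CPM in DC371739 and control livers, with none of 10 called, from Pecam1 (0.71) to Clec4g (-0.12). Lymphocyte markers summed to 7.94 to 17.5 CPM with DC371739 and 6.30 to 12.2 CPM in controls, with none of 7 called, from Prf1 (1.08) to Cd79b (-0.04). Without the deeper libraries, where 1353 of 12249 genes were called higher, 6 of 13 macrophage, 4 of 10 endothelial, 2 of 11 hepatocyte, 1 of 10 stellate and 1 of 7 lymphocyte markers were called higher and none lower. No marker with a symbol was at 0 in any library. In bulk liver, a change in the number of cells of a type and a change in RNA per cell cannot be told apart. The part of these cell types in the levels of Sgk1 or Gadd45g was not tested.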

How the data were processed

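Liver RNA of 14 samples (7 DC371739, 7 control) was sequenced. The submitters' processing notes name featureCounts 2.0.0, HISAT2 2.2.1 and edgeR; the sources used here name no build, annotation or strand setting, and the labels name both a TruSeq and an NEBNext kit. The authors deposited whole-number counts per gene for 22283 genes with exon coordinates and summed length, and a table of FPKM for 10023 genes with a symbol. From the values, the authors' FPKM equal count over length times 1 constant per library (largest relative deviation 1.3e-07). Beside these, the authors deposited p-values with their adjusted form, a mean on the log2 scale and a log2 fold change. None of the Ensembl identifiers was in the RefSeq gene table, and no sequence was used here.

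The test was edgeR 4.0.16's, in R 4.3.3, on the counts (robust quasi-likelihood F-test, TMM, default filter with a minimum count of 10, treatment alone in the model, Benjamini-Hochberg adjusted p under 0.05 over 12166 genes). The SE is the fold change over the square root of F. Log2 CPM used a prior count of 2. No p is printed for the 8 genes in the treatment contrast. Alternatives were other scalings and filters, DESeq2 1.42.0, limma 3.58.1 on log2 FPKM (pseudocount 1 or 0.1; genes of mean FPKM 1 or more), a block on the replicate number, a term for library class, no deeper libraries, and each library left out. Upper-quartile scaling, the interaction of treatment with library class and the leaving out of libraries from the 11 were added after seeing the data. The test was checked on simulated counts.

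The genes and lists were chosen with earlier results of these data known. Genes named were all 8; in each list those called (at most 6) or else the 3 of smallest p; the highest and lowest of each marker list; and the 5 nearest in pattern to Sgk1 and to Gadd45g. Other names are marked. Per library, the lowest of 42 chi-square values per degree of freedom between samples of a group was 10.6, above counting error, so no library was counted as deposited a second time; whether samples share an animal is not known.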

Additional observations from a re-analysis of the deposited data

Results flagged for a closer look

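Among the 16 sets of 7 libraries (8 genes in each group), 1 held a library far from the others. Gadd45b stood at 134 CPM in control replicate 2, and the next highest control had 96.7 CPM, a gap of 0.63 of the whole control range. About 1 in 20 such sets is marked by chance.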

How the results depend on the processing

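The count of 225 genes was 850 with DESeq2, 8 with a replicate block, 1499 with the class term and 2635 without the 3 deeper libraries, and 25 to 1069 without 1 library (51, 25, 77, 25 and 1069 when DC371739 replicate 2, 3, 5, 6 or 7 was omitted; 106, 73, 53, 63 and 542 when control replicate 1, 2, 3, 5 or 7 was). Of the 11 shallower libraries, omitting control replicate 5 gave 1624 genes and control replicate 2 gave 1747, against 2635. The 2 called of the 8 genes became 1 with no expression filter, where Gadd45g was lost, 0 with the replicate block, and 1 to 2 without 1 library. The 2 called of the list genes became 14 with DESeq2, 1 with the replicate block, 16 with the class term, 31 without the deeper libraries and 1 to 15 without 1 library. Upper-quartile scaling gave 223 higher and 65 lower genes, library size alone 124 and 36, and no filter 138 and 46, against 151 and 74. Hspa8 also lost its call with the replicate block (adjusted p = 0.0632, edgeR). The cause of these changes was not tested. Deviations of samples sharing a number correlated at 0.55 for replicate 7, both of whose libraries are deeper, at 0.12 for replicate 3 and at -0.13 to 0.03 for the other 5 pairs, and 1 of 14 libraries was closest to its own number, so the replicate number was not taken as a pairing. The log2 fold changes of Sgk1 and Gadd45g kept their sign in all 25 settings (-1.52 to -1.18 and -1.71 to -1.35), as did those of Fkbp5, Hsd11b1 and Cdkn1a. All settings draw on the same libraries, and Sgk1 and Gadd45g were chosen by this contrast, so their kept sign adds no support. Gadd45a ranged over single libraries left out from -0.0075 (without control replicate 5) to 0.20 and Gadd45b from -0.15 to 0.037 (without control replicate 2). Low counts limit Zbtb16.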
